A study of Mus musculus with 2 samples.

Results

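The genes described here encode the translation initiation factors (eIFs) and translation elongation factors (eEFs) of the mouse, with the enzymes that modify eEF1A and eEF2. They were taken by name from the GENCODE M21 annotation: protein-coding genes whose symbol starts with Eef1, Eef2 or Eif followed by a digit, leaving out pseudogenes with "-ps" in the symbol, the Eif2ak kinases, the Eif4ebp inhibitors and Eif2s3y. That rule found 60 genes of 55536 annotated ones, 22028 of which are protein-coding, and it used no measured value. The series holds polyA-selected RNA sequencing of regulatory T cells, taken as primary cells from a male mouse of 9 weeks. There is 1 group, with 1 biosample sequenced as 2 libraries, so the error given is the technical spread of the libraries (SD, n = 2) and says nothing of other mice. The mouse strain, any sorting of the cells and any treatment were not given in the sources used here. Because RNA was measured in bulk, fewer cells of a type and less RNA per cell cannot be told apart.

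Translation starts when the small ribosomal subunit, held by eIF1, eIF1A and eIF3 and carrying initiator tRNA bound to eIF2, is recruited to the capped mRNA by the eIF4 factors and scans to a start codon. eEF1A then brings each aminoacyl-tRNA to the ribosome and eEF2 moves the ribosome on by a codon, while eIF5A helps at sequences where peptide bonds form slowly. T cells raise their rate of protein synthesis steeply when they are activated, and cap-dependent initiation, which mTOR controls, is one of the steps through which they do so.

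The libraries held 34697128 and 32049199 estimated counts in annotated genes. Levels are given as TPM, the share of a gene among all transcripts after division by length, scaled to a fixed total, a value that can be compared between genes. The label was checked against marker genes. All 6 genes of the regulatory T cell and T cell list were detected, with Foxp3, the transcription factor that defines these cells, at 108 and 111 TPM and Il2ra, the interleukin-2 receptor alpha chain, at 364 and 371 TPM. Markers of other cells summed to 19.5 and 14.3 TPM for myeloid cells (2 of 3 detected), 216 and 204 TPM for red cells (3 of 3), 25.8 and 26.1 TPM for CD8 T cells (2 of 2) and 0.22 and 0.01 TPM for stroma (0 of 2). Of the myeloid markers Lyz2 stood at 14.4 and 11.9 TPM, Csf1r at 4.34 and 1.91 TPM and Itgam at 0.77 and 0.5 TPM. Of the CD8 markers Cd8b1 stood at 24.1 and 23.3 TPM and Cd8a at 1.69 and 2.84 TPM. The part of those cells in the levels below was not tested. A second deposited table holds whole-number counts, and ratios of paralogs computed from it, after division by the same effective lengths, are given beside those of TPM where they differ by more than 1.5 times.

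Nearly all of the factors were present, and most stood well above the ordinary gene. At 1 TPM or more in both libraries, 57 of the 60 were detected (95% against 48.0% of all protein-coding genes). The detected factors had a median of 102.8 TPM, beside 31.1 TPM for the 10583 detected protein-coding genes. Of the 60, 29 reached 100 TPM or more, 25 lay between 10 and 100 TPM, 3 between 1 and 10 TPM and 3 below 1 TPM. Together they took 1.49% of the TPM of annotated genes in library 1 and 1.53% in library 2. Eef1a1 alone made up 23.96% and 27.0% of that share, and Eef1a1, Eif1 and Eif5a together made up 46.4% ± 1.03 of it. The 60 took 1.44% and 1.53% of estimated counts but 0.821% and 0.861% of whole-number counts. By whole-number counts Eef1a1, at 752 and 752, was below Eif4g2, at 5581 and 5509. The libraries repeated each other closely: the SD was below 10% of the mean for 48 of the 57 detected factors, with a median of 4.49% and a range of 0.228% to 20.3%. The genes are spread over 18 chromosomes.

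**Figure D1:**
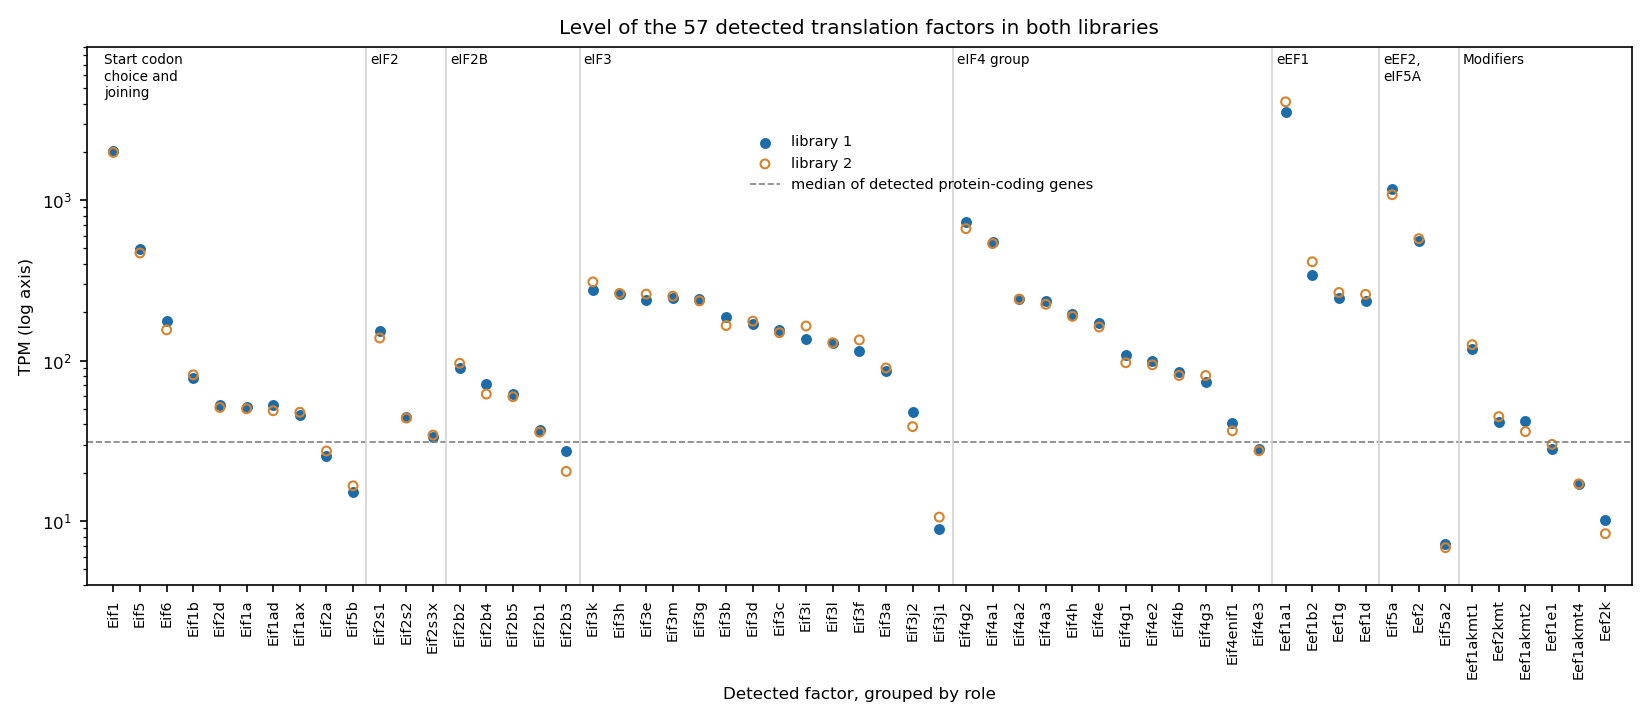
TPM (log axis) of the 57 detected factors in library 1 (filled) and library 2 (open), ordered by role and by level within each role; the dashed line is the median of the detected protein-coding genes, 31.1 TPM. Eef1a1, Eif1 and Eif5a are the highest points in both libraries, and Eif5a2 is the lowest point, at 7.16 and 6.83 TPM.

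By TPM the eEF1 genes held the most abundant factor of all and 1 of the least abundant. Eef1a1, the GTPase that carries aminoacyl-tRNA to the ribosome, stood at 3537 and 4099 TPM (3818 ± 397), rank 11 among protein-coding genes. Its paralog Eef1a2, known from muscle and brain, had 0 reads in library 1 and 1 read in library 2. Against a floor of 3 reads in library 1, Eef1a1 was at least 50726-fold higher there. In library 2 the ratio of reads per effective length was 171164, with a 95% exact Poisson interval of 30721 to 6760615 from the 1 read. The bound and the interval cover counting error only. By whole-number counts per effective length the library 2 ratio was 465, from 752 counts of Eef1a1 and 2 of Eef1a2. The genes lie on chromosomes 9 and 2, and over the 1386 aligned coding bases their leading transcripts were 79.9% identical, with no window of 50 bases in common. The first 60 coding bases of each are shown because reads of the pair are told apart by differences such as these: both stretches lie in exon 2 on the minus strand (GRCm38, chr9:78480595-78480654 for Eef1a1-201 and chr2:181155347-181155406 for Eef1a2-201), and capitals mark the 11 bases that differ.
Eef1a1: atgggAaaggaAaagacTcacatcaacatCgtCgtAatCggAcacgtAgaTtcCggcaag
Eef1a2: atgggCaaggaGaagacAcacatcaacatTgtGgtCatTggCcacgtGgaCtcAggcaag

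The other eEF1 genes encode the exchange complex that reloads eEF1A with GTP. Eef1b2, a nucleotide exchange subunit, stood at 344 and 413 TPM. Eef1g, the subunit that anchors the complex, stood at 246 and 266 TPM, and Eef1d, a second exchange subunit, at 234 and 259 TPM. As whole genes the subunits lay close together: the highest was 1.47-fold above the lowest in library 1 and 1.60-fold in library 2. Their sum, 824 and 938 TPM, was well below Eef1a1 in both libraries. Protein-coding transcripts took only 51.9% and 54.6% of Eef1b2 TPM, beside 81.7% and 80.2% for Eef1g and 93.2% and 93.5% for Eef1d. Transcripts marked for nonsense-mediated decay took 44.8% and 42.5% of Eef1b2 TPM.

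Eef2 and Eif5a, both known for a modified amino acid that their proteins carry (diphthamide and hypusine), were also high. Eif5a, the hypusine-bearing factor that relieves stalled ribosomes, stood at 1182 and 1080.25 TPM (1131 ± 71.7). Eef2, the translocase, stood at 559.9 and 575 TPM (568 ± 10.8). Eif5a2, the second eIF5A gene, was at 7.16 and 6.83 TPM, so that Eif5a exceeded it 162-fold ± 4.86, or 53.5-fold by whole-number counts. The coding sequences of the Eif5a pair were 73.2% identical over 459 aligned bases and shared no 50-base window. The start of each coding sequence is printed to show how far these paralogs have parted: both lie in exon 2 (GRCm38, chr11:69919256-69919315, minus strand, for Eif5a-209 and chr3:28782052-28782111, plus strand, for Eif5a2-201), and capitals mark the 17 differing bases.
Eif5a: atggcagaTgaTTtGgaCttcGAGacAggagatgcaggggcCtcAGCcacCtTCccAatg
Eif5a2: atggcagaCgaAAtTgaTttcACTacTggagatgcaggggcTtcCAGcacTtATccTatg

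The 10 factors of start codon choice and subunit joining were all detected and ranged from 15.9 TPM (Eif5b) to 2004 TPM (Eif1), with a median of 51.5 TPM. Eif1, the small protein that keeps the scanning ribosome from stopping at a wrong codon, stood at 2026 and 1982 TPM (2004 ± 30.5), rank 30 among protein-coding genes. Its paralog Eif1b stood at 78.1 and 81.5 TPM, and the ratio Eif1 to Eif1b was 25.1 ± 1.13. By whole-number counts that ratio was 1.64, and 31.6% of the sequence windows of Eif1 are shared with other genes. Protein-coding transcripts took 28.6% and 26.2% of Eif1 TPM (55.9% and 53.7% of its estimated counts) and 100% of Eif1b TPM. Eif5, which makes eIF2 hydrolyse its GTP at the start codon, reached 498 and 469 TPM. Eif6, which holds the large subunit apart until it is needed, stood at 175 and 155 TPM. The genes of eIF1A, the partner of eIF1 on the small subunit, were near equal as whole genes: Eif1ax on chromosome X stood at 45.55 and 47.7 TPM and Eif1a on chromosome 18 at 51.6 and 50.1 TPM, a ratio of 0.917 ± 0.049, which whole-number counts turned to 1.69. Protein-coding transcripts took 49.4% and 46.1% of Eif1ax TPM (93.2% and 92.3% of its estimated counts) and 100% of Eif1a TPM. Eif1ad, named for a domain like that of eIF1A, stood at 52.8 and 48.7 TPM. Of the proteins that can bring initiator tRNA without eIF2, Eif2d stood near the median of the group, at 53.2 and 51.0 TPM, and Eif2a below it, at 25.3 and 27.3 TPM. Eif5b, the GTPase that joins the subunits, was the lowest, at 15.2 and 16.6 TPM.

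eIF2 carries initiator tRNA and is the target of the stress kinases. Its subunits were not level. Eif2s1, the alpha subunit with the phosphorylated serine, stood at 154 and 138 TPM. Eif2s2, the beta subunit, stood at 44.6 and 43.9 TPM, and Eif2s3x, the X-linked gamma subunit, at 33.6 and 34.35 TPM. Eif2s1 was thus 4.58-fold above Eif2s3x in library 1 and 4.03-fold in library 2. Eif2s3y, the Y-linked gene for the gamma subunit, which is not among the 60, stood at 133 and 105 TPM, and the ratio Eif2s3x to Eif2s3y was 0.290 ± 0.053, or 0.00443 by whole-number counts. The gamma genes of this male mouse summed to 167 and 139 TPM, near the 154 and 138 TPM of the alpha subunit. These comparisons are of whole genes. Protein-coding transcripts took only 40.3% and 41.8% of Eif2s1 TPM, though 85.0% and 85.3% of its estimated counts. They took 98.6% and 99.2% of Eif2s2 TPM and 98.8% and 100% of Eif2s3x TPM. Eif2s3x also shares 36.2% of its sequence windows with other genes.

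eIF2B reloads eIF2 with GTP, and its 5 subunits were all detected. Eif2b2 (beta) stood at 89.9 and 96.2 TPM, Eif2b4 (delta) at 71.0 and 61.9 TPM, and Eif2b5 (epsilon, the catalytic subunit) at 61.95 and 59.6 TPM. Eif2b1 (alpha, which senses phosphorylated eIF2) stood at 37.1 and 35.8 TPM, and Eif2b3 (gamma) was the lowest, at 27.2 and 20.4 TPM. The highest subunit was 3.30-fold above the lowest in library 1 and 4.72-fold in library 2. The order of Eif2b4 and Eif2b5 did not exceed their spread: Eif2b4 had an SD of 6.48 TPM.

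eIF3, the largest initiation factor and the scaffold on the small subunit, had all 14 of its genes detected, most of them at similar levels. Without the Eif3j genes, whose product is only loosely attached, the 12 others stood within 3.21-fold of each other in library 1 and 3.44-fold in library 2. Eif3k was highest, at 276 and 309 TPM, followed by Eif3h at 261 and 262 TPM, Eif3e at 238 and 259.8 TPM, Eif3m at 244 and 252 TPM and Eif3g at 242 and 235 TPM. Eif3e and Eif3m overlapped, and Eif3h exceeded Eif3e by less than the SD of Eif3e, 15.2 TPM. The middle of the order held Eif3b at 188 and 165 TPM, Eif3d at 170.25 and 176 TPM, Eif3c at 155 and 149 TPM, Eif3i at 136 and 164 TPM, Eif3l at 129.6 and 129 TPM and Eif3f at 115 and 135 TPM. In that run the ranges of Eif3b and Eif3d overlapped, as did those of Eif3c and Eif3i and those of Eif3l and Eif3f. Eif3a, which encodes the largest subunit and organises the complex, was lowest, at 85.9 and 89.97 TPM. The order followed length: across these 12 genes Spearman's rho between effective length and mean TPM was −0.65, beside −0.40 across the 57 detected factors and −0.22 across all 10583 detected protein-coding genes. These correlations are across genes measured in the same libraries, and TPM itself is divided by length, so they are given as descriptions.

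**Figure D2:**
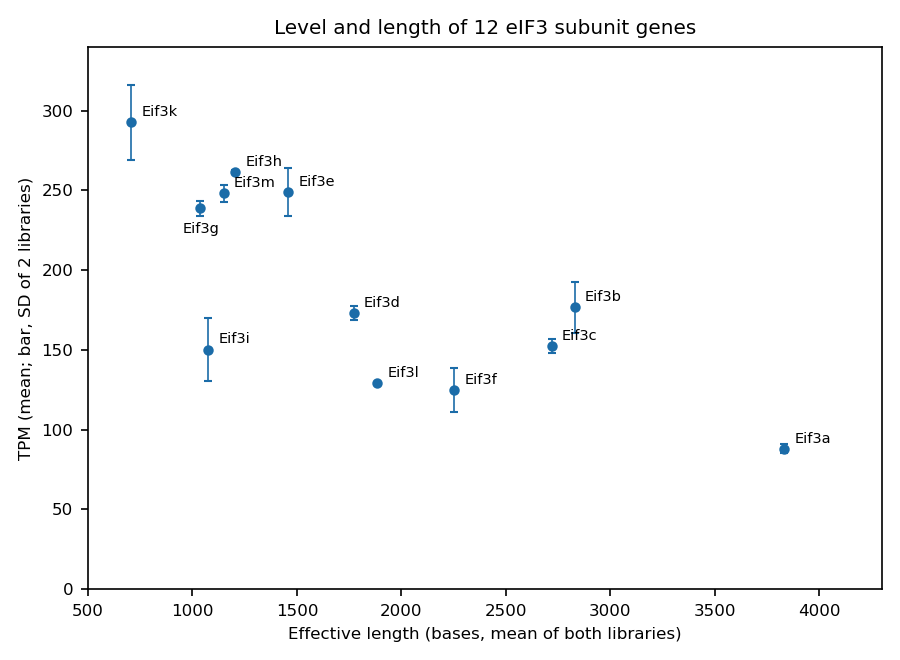
Mean TPM of 12 eIF3 subunit genes against effective length, the transcript length over which a read can start, in bases; points are means and bars are the SD of the 2 libraries. The short Eif3k lies at the upper left (276 and 309 TPM) and the long Eif3a at the lower right (85.9 and 89.97 TPM).

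The Eif3j genes were the outliers of the group. Eif3j1 stood at 8.95 and 10.6 TPM and Eif3j2 at 47.8 and 38.8 TPM, a ratio of 0.230 ± 0.061. Their coding sequences were 99.7% identical, with 781 of 783 aligned bases the same. Of the 50-base windows of Eif3j1, 2115 also occur in Eif3j2, so the division of reads between them is an estimate and the ratio is uncertain. In the second, whole-number count table the order was the opposite, with 31 and 30 counts for Eif3j1 and 3 and 4 counts for Eif3j2.

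The eIF4 group brings mRNA to the ribosome, and 12 of its 13 genes were detected, with a median of 102.8 TPM over the 13. Eif4g2, an eIF4G relative that lacks the site for eIF4E and serves cap-independent initiation, was the highest, at 729 and 664 TPM. The eIF4G scaffolds proper were lower: Eif4g1 stood at 109 and 97.0 TPM and Eif4g3 at 73.3 and 80.7 TPM. The ratio Eif4g1 to Eif4g2 was 0.147 ± 0.002, or 0.684 by whole-number counts, and Eif4g1 to Eif4g3 was 1.34 ± 0.198. The cap-binding protein gene Eif4e stood at 173 and 162 TPM. Eif4e2, whose product binds caps without recruiting eIF4G, stood at 100.05 and 94.1 TPM, and Eif4e3, another relative, at 28.0 and 27.4 TPM. Eif4e was 1.72-fold ± 0.003 above Eif4e2 by TPM, but whole-number counts turned that ratio to 0.452. Eif4e was 6.04-fold ± 0.187 above Eif4e3, or 3.97-fold by whole-number counts. Eif4h and Eif4b, cofactors of the helicase, stood at 197 and 189 TPM and at 85.05 and 80.8 TPM. Eif4enif1, which carries eIF4E into the nucleus, stood at 40.7 and 36.5 TPM.

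Both helicase paralogs were abundant. Eif4a1 stood at 547 and 536 TPM (542 ± 7.34) and Eif4a2 at 242 and 242 TPM (242 ± 0.552), a ratio of 2.24 ± 0.025. Whole-number counts turned that ratio to 0.281, and Eif4a1 shares 65.3% of its sequence windows with other genes. Protein-coding transcripts took 80.3% and 78.8% of Eif4a1 TPM but 37.6% and 34.5% of Eif4a2 TPM. By estimated counts those shares were 85.2% and 83.9% for Eif4a1 and 55.6% and 52.4% for Eif4a2. Eif4a3, a relative that works in the exon junction complex and not in initiation, was close to Eif4a2 as a whole gene, at 237 and 224 TPM. The ratio Eif4a1 to Eif4a3 was 2.35 ± 0.058 by TPM and 0.195 by whole-number counts. The leading coding sequences of Eif4a1 and Eif4a2 were 77.6% identical over 1083 aligned bases and had no 50-base window in common. A stretch of exon 3 is shown because it tells the pair apart (GRCm38, chr11:69670688-69670747, minus strand, for Eif4a1-213 and chr16:23108719-23108778, plus strand, for Eif4a2-202), with the 13 differing bases in capitals.
Eif4a1: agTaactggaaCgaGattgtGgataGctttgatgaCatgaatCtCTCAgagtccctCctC
Eif4a2: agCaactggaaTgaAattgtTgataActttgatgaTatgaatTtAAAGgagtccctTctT

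The 7 genes grouped as modifiers and companions were low, with a median of 29.2 TPM and 6 of 7 detected. Eef1akmt1, a lysine methyltransferase of eEF1A, was the exception, at 118 and 126 TPM. The related Eef1akmt2 stood at 41.8 and 36.1 TPM and Eef1akmt4 at 16.9 and 17.1 TPM. Eef2kmt, which methylates eEF2, stood at 41.4 and 44.8 TPM. Eef2k, the kinase that phosphorylates eEF2 and slows elongation, stood at 10.2 and 8.35 TPM, far below its substrate. Eef1e1, a component of the aminoacyl-tRNA synthetase complex, stood at 28.3 and 30.1 TPM.

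Of the 60 factors, 3 were not detected. Besides Eef1a2 these were Eif4e1b, known from oocytes, with 0 and 1 read (0 and 0.07 TPM), and Eef1akmt3, with 7 and 2.1 estimated counts (0.12 and 0.04 TPM). At these depths 3 reads would give Eef1a2 0.070 and 0.072 TPM, so the data cannot tell a level below that from none.

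Regulators and partners of the factors that the naming rule leaves out were taken from a list of 51 genes, of which 50 matched an M21 symbol and 49 were detected. Their median was 40.7 TPM. The genes named from it are examples chosen after their values were seen. Among the 4 eIF2 kinases, Eif2ak1, which responds to low heme, was highest, at 48.95 and 44.3 TPM. Eif2ak4, which senses uncharged tRNA, was lowest by mean, at 7.19 and 7.99 TPM. Eif2ak3, at 10.5 and 7.83 TPM, was below it in library 2. The phosphatase side ranged from the catalytic subunit gene Ppp1ca, at 914 and 885 TPM, to Ppp1r15b, at 37.0 and 29.15 TPM. Ppp1r15b was below Eif2ak1 in both libraries, and the stress-induced Ppp1r15a stood at 83.0 and 58.9 TPM. Of the eIF4E and eIF4A inhibitors, Eif4ebp1 stood at 19.99 and 20.9 TPM, below Eif4e, and Pdcd4 at 130.3 and 132 TPM. Pabpc1, the poly(A)-binding protein that meets eIF4G, stood at 244 and 315 TPM. Dhps, which starts the hypusine modification of eIF5A, stood at 77.3 and 76.8 TPM. The release factor gene Gspt2 was not detected, at 0.19 and 0.06 TPM, while its relative Gspt1 stood at 81.2 and 81.35 TPM. Tufm, the mitochondrial counterpart of eEF1A, stood at 92.2 and 90.5 TPM.

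Most of the output of these genes came from protein-coding transcripts. M21 lists 387 transcripts for the 60 genes, of which 200 are protein-coding, 112 have a retained intron, 48 are other processed transcripts and 27 are marked for nonsense-mediated decay. The protein-coding share of a detected factor had a median of 91.3% of its TPM (SD of the median over the libraries, 1.00) and exceeded 90% for 29 of the 57. Neither these shares nor the leading transcripts below are given for other genes, so whether the factors differ from them was not tested. The transcript with the most TPM was not protein-coding for 6 factors: Eif1, Eif1ax, Eif2a, Eif2s1, Eif3j1 and Eif5b, the same 6 in both libraries.

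These exceptions differed in how much they rested on the unit. For Eif1, the short processed transcript Eif1-202 took 48.0% and 49.9% of the TPM, and protein-coding transcripts took 28.6% and 26.2%. By estimated counts, which are not divided by length, the protein-coding transcripts of Eif1 took 55.9% and 53.7%. Eif1ax, Eif2s1 and Eif3j1 showed the same contrast: their protein-coding share was 47.8%, 41.0% and 41.2% of TPM but 92.7%, 85.1% and 86.9% of counts, as means of the libraries. Eif5b kept its call by both units, since its retained-intron transcript Eif5b-202 took 62.2% and 68.1% of TPM and 56.2% and 63.3% of counts. Eif2a was split, with protein-coding transcripts at 41.7% ± 1.99 of TPM and 43.7% ± 0.794 of counts, and transcripts marked for decay at 42.4% ± 0.954 and 39.3% ± 0.008. Eif4a2, led by the protein-coding Eif4a2-202, nonetheless had 30.3% ± 0.226 of its TPM in transcripts marked for decay and 33.6% ± 1.96 in retained-intron transcripts. In Eef1b2, transcripts marked for decay took 43.7% ± 1.65 of TPM and 43.0% ± 1.69 of counts. These shares are estimates of a model that divides reads among overlapping transcripts. Levels, orders and ratios of the factors above are of whole genes, so transcripts that are not protein-coding count in them. By counts, 1 factor in place of 6 was led by a transcript that is not protein-coding.

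**Figure D3:**
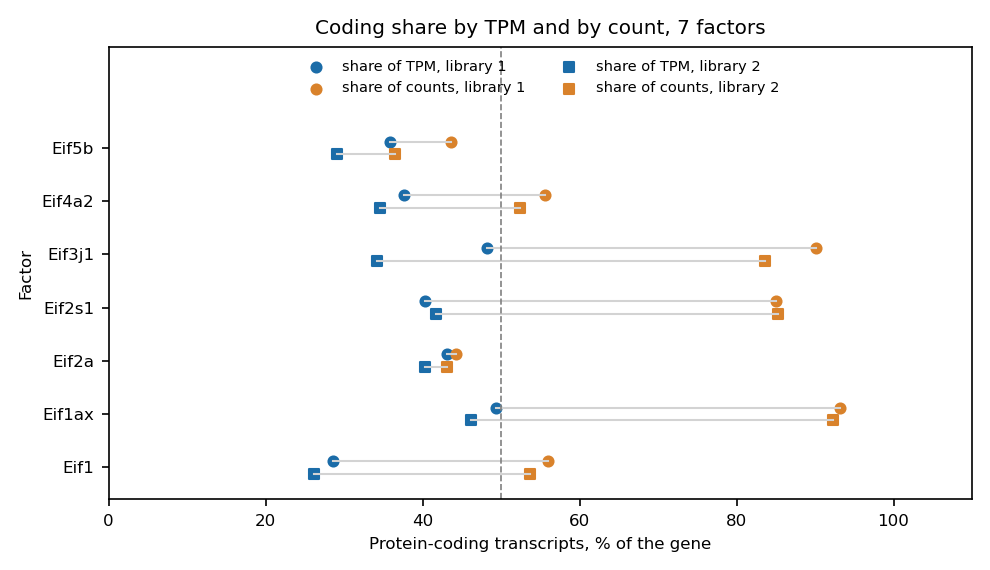
Protein-coding transcripts as a percentage of the gene, by TPM (blue) and by estimated counts (orange), in library 1 (circles) and library 2 (squares), for the 7 factors with a share under 50% by TPM. Eif1ax, Eif2s1 and Eif3j1 move far to the right by counts, while Eif5b and Eif2a stay under 50%.

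Many factors have processed pseudogenes, and the sequence they share bears on how reads are divided. Transcripts were compared in windows of 50 bases, since effective length was 49 bases below transcript length for every long enough transcript. Of the 60 leading protein-coding transcripts, 28 shared no window with another gene, 20 shared under 20% and 12 shared 20% or more. Those 12 were Eif3j2 (90.8%), Eif4a1 (65.3%), Eef1g (64.3%), Eef1a1 (56.5%), Eif3j1 (39.4%), Eif3m (37.3%), Eif2s3x (36.2%), Eif1 (31.6%), Eif2s2 (27.8%), Eif3h (26.2%), Eif4a3 (24.4%) and Eif3e (22.03%). For Eef1a1 the windows lay in 19 other genes, 18 of them pseudogenes, which together were given 595 and 658 estimated counts, beside 125575 and 138302 for Eef1a1 itself. For Eif4a1 the main partner was the pseudogene Eif4a-ps4, with 2156 and 2560 counts against 18812 and 17830 for Eif4a1. Eif1 shared windows with 18 genes, 17 of them pseudogenes and the other Emd, the gene of the nuclear envelope protein emerin, listed at 52.8 and 59.8 TPM. One window of each is printed as an example of sequence that cannot place a read; all letters are lower case because the whole window is shared. That of Eef1a1 (GRCm38, chr9:78479912-78479961, minus strand, exon 4 of Eef1a1-201) occurs in 7 pseudogenes, that of Eif4a1 (chr11:69670205-69670254, minus strand, exon 4 of Eif4a1-213) in 4 pseudogenes, and that of Eif1 (chr11:100320970-100321019, plus strand, exon 3 of Eif1-201) in 10 pseudogenes and Emd.
Eef1a1: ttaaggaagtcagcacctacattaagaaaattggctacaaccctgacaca
Eif4a1: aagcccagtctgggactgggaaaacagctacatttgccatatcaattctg
Eif1: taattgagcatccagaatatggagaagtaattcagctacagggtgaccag

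A second deposited table, of whole-number counts on the older GENCODE M4 annotation made from genome alignments, gave these shared genes far fewer reads. Eef1a1 had 752 and 752 counts there, and Eif4a1 had 368 and 382. Eif2s3x had 17 and 15 counts, against 2529 and 2536 estimated counts. Over the 56 detected factors with an M4 entry, the whole-number count was a median of 44.1% and 44.7% of the estimated count where no window was shared (26 factors). It was 25.8% and 24.2% where under 20% was shared (18 factors) and 4.24% and 4.43% where 20% or more was shared (12 factors). Spearman's rho between the share of windows and that percentage was −0.69 in each library over the 56 factors, and between mean TPM and that percentage −0.43 and −0.44. Shared windows and high TPM go together here, the points come from the same libraries, and Eif5a2, which shares no window, had only 9.03% and 8.31%. How reads on several genes were treated in the whole-number table was not given in the sources used here. Levels of the 12 factors are therefore reported as uncertain, although the deposited posterior SD was under 1% of the posterior mean count in both libraries for 53 of the 57 detected factors. Low percentages were not confined to those 12: Eif5a, with 8.18% of its windows shared, had 2.72% and 3.01%. Eif4e (7.16% shared) had 7.05% and 8.44%, and Eif4g2, which shares no window, had 11.9% and 13.8%. Levels of such factors are uncertain too.

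**Figure D4:**
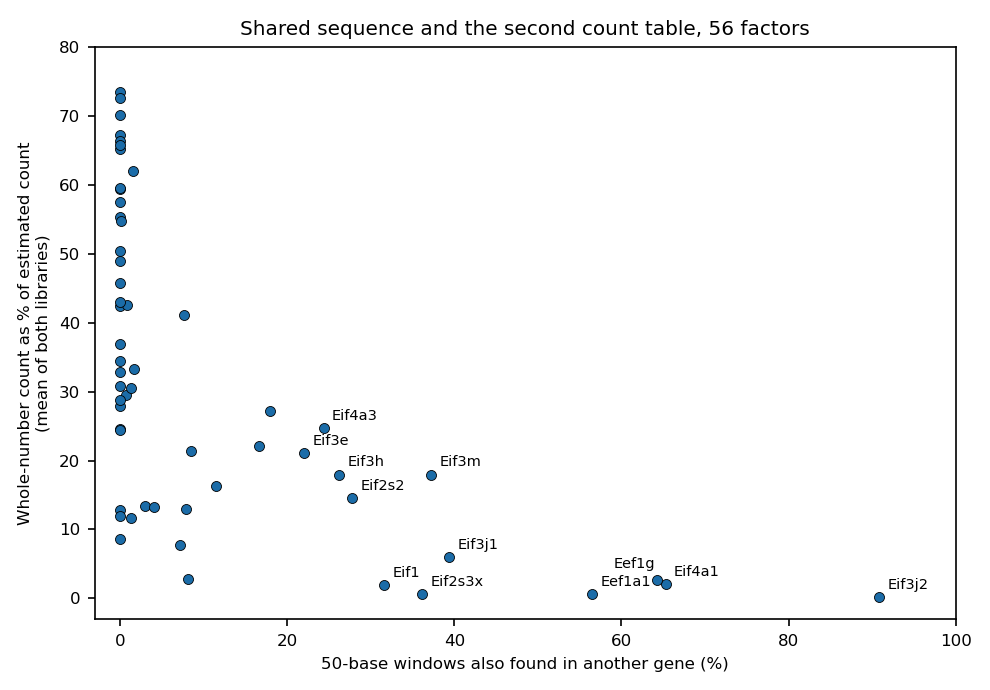
Whole-number count as a percentage of the estimated count (mean of both libraries) against the percentage of 50-base windows that also occur in another gene, for 56 detected factors; factors at 20% or more are named. Eif3j2, Eif4a1, Eef1g, Eef1a1, Eif2s3x and Eif1 lie near 0, and factors with no shared window spread from about the level of Eif5a2 (9.03% and 8.31%) up to that of Eif2b4 (73.1% and 73.8%).

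Other annotated genes also lie on top of the factors. Of the 60, 34 overlap another gene, 19 of them a gene on the other strand, and whether the counting used strand was not given in the sources used here. Eef1a1 contains a predicted miRNA entry, Gm26377, on its own strand, which was given 1421 and 1349 estimated counts and 1139 and 1114 TPM. Reads of the 2 entries cannot be told apart over the 3.38% of Eef1a1-201 windows that they share.

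The libraries differed for many of the factors by a small amount. The test was binomial, exact and two-sided, on the counts of each of 18749 genes, and a gene was called at a Benjamini-Hochberg adjusted p below 0.05. This compares 2 libraries of 1 biosample and covers counting error only. The 3 undetected factors had too few counts to be tested. Of the 57 tested factors, 23 were higher in library 2, where 17.2% of all tested genes were called in that direction, and 11 were higher in library 1, where 19.2% were. In either direction 34 of 57 were called, beside 36.4% of all genes. Among the 9003 protein-coding genes whose counts summed to 500 or more, 20.2% were higher in library 2 and 26.9% in library 1. The factors' share in library 2, 40.4%, was thus above both backgrounds. That in library 1, 19.3%, was near the first and below the second. The test calls smaller ratios as counts rise, and neither background was matched to the factors by counts. These shares alone therefore do not show that the factors differ from genes of like counts. edgeR's exact test with a common dispersion, which allows for more noise than counting, called 0 of the 57 factors (2.98% of all genes), 0 at an unadjusted p below 0.05, and its lowest unadjusted p among the factors was 0.272. On whole-number counts the binomial test called 5 of 55 factors higher in library 2 and 1 higher in library 1, where 4.62% and 9.76% of 12147 genes were called. The log2 ratios, library 2 over library 1, ran from −0.34 to 0.34, with a median of 0.04 beside 0.00 for all genes tested. The dispersion of edgeR's exact test was estimated from these same 2 libraries taken as 1 group, so their difference counted as noise. The absence of calls in that test therefore does not show that the libraries were alike at ratios of this size.

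Of the 23 factors called higher in library 2, 4 were eEF1 genes and 10 eIF3 genes, and the other 9 came from the other groups. Among the eEF1 genes 4 of 4 tested were called higher there, and their median log2 ratio was 0.24. Eef1b2 had the largest ratio of any factor, 0.34 (binomial adjusted p = 3.52e-31), and Eef1a1 had 0.25. Among the eIF3 genes, 10 of 14 were called higher in library 2 and 2 in library 1, with a median of 0.12. Eif3i (0.33, adjusted p = 1.72e-19), Eif3f (0.31, adjusted p = 3.75e-29), Eef1d (0.23) and Eif3k (0.23) followed Eef1b2. On the other side stood Eif2b3 (−0.34), Eif3j2 (−0.23), Eef2k (−0.22, adjusted p = 0.031) and Eef1akmt2 (−0.19, adjusted p = 0.034), with Eif4g2 at −0.12. The eIF4 group was split, with 2 called higher in library 2 and 3 in library 1. Effective length moved with the ratio over all 10583 detected protein-coding genes (Spearman's rho −0.20) and over the 57 factors (−0.26). With each ratio centred on that of genes of like length, the medians were 0.22 for eEF1, 0.13 for eIF3 and 0.07 for all 57 factors. On whole-number counts 4.62% of all genes tested were called higher in library 2. Of the 4 eEF1 genes 0 were, and of 13 tested eIF3 genes 3 were (Eif3a, Eif3f and Eif3i), with medians of 0.09 and 0.10.

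**Figure D5:**
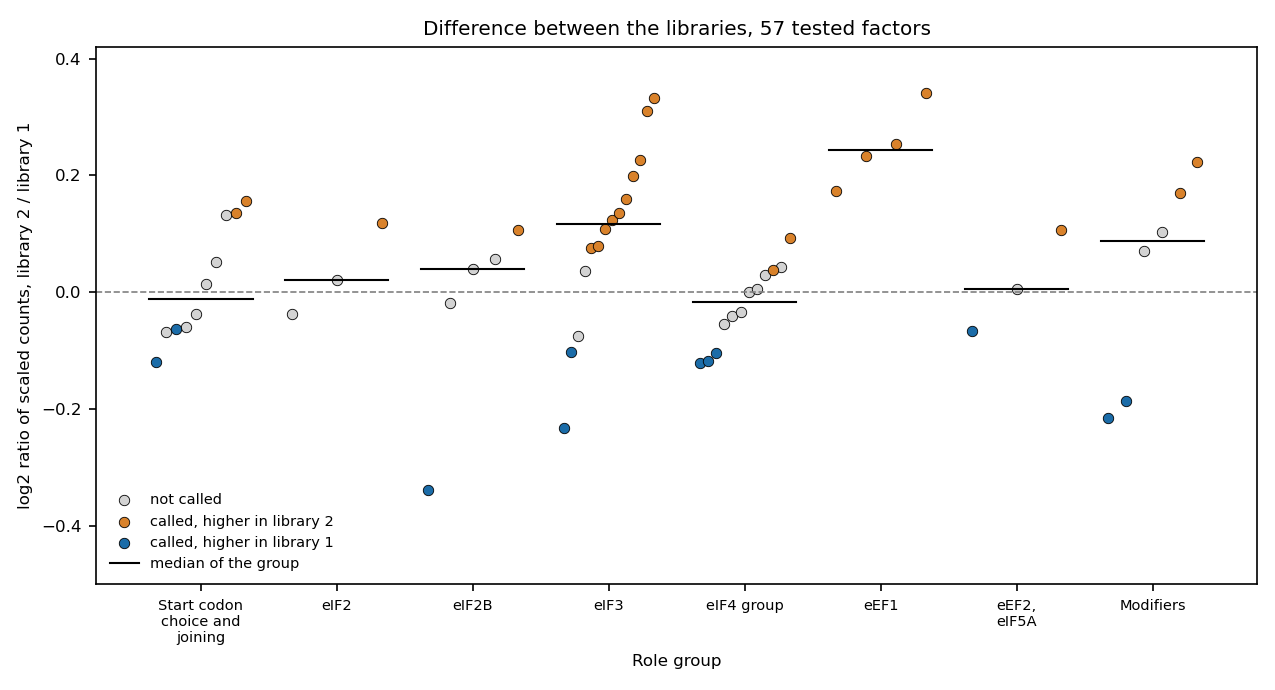
log2 ratio of the scaled counts of library 2 to library 1 for the 57 tested factors by role; colour shows the call of the binomial test (grey, not called) and black lines the group medians. All 4 eEF1 points lie above 0 and 10 of 14 eIF3 points are called higher in library 2, while the other groups lie on both sides of 0.

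Some of these genes are known for mRNAs that begin with an oligopyrimidine tract (TOP mRNAs), whose translation mTOR controls as a set. A list of 9 such factors held Eef1a1, Eef1b2, Eef1d, Eef1g, Eef2, Eif3e, Eif3f, Eif3h and Eif4b. Its eEF1 and eIF3 genes were already counted above by role, so the calls here partly repeat those. Of the 9, 8 were called higher in library 2 and 0 in library 1, beside 17.2% and 19.2% of all genes tested. Among protein-coding genes with 500 or more counts those shares were 20.2% and 26.9%. Neither background was matched to the 9 by counts. The median log2 ratio of the 9 was 0.20, or 0.18 after centring by length and 0.10 on whole-number counts. On whole-number counts 2 of the 9, Eef2 and Eif3f, were called higher in library 2, beside 4.62% of all genes tested. The exception was Eif4b, at 6671 and 6185 estimated counts (log2 ratio 0.01, adjusted p = 0.907 by the binomial test). Of the 51 regulators and partners, 50 were tested, 10 were higher in library 2 and 7 in library 1, with a median of 0.01. The lists were chosen with earlier results of these data known and were described by counts and medians only. edgeR's exact test, whose dispersion came from these same libraries, called 0 of the 9, and no list was tested.

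RefSeq starts were searched for runs of C and T nearby. Because runs away from the start were counted too, and runs under 8 bases were not, the search cannot tell which genes have such tracts. Runs of at least 8 bases of C or T that begin with C, on the gene's strand and within 50 bases of the start, were present in 28.8% of all 32851 RefSeq promoter windows (GRCm38.p6) and in 38.3% of the 60 windows matched to 46 of the factors. Of the TOP list 5 genes had a window, and 2 of these held a run. Both runs are printed in capitals to show where they lie against the annotated start, which neither begins at: that of Eef1a1 (chr9:78481708-78481737, minus strand) begins 5 bases before the start, and that of Eif3f (chr7:108934403-108934432, plus strand) 4 bases before it.
Eef1a1: tggctccgCCCTCTTCCCgagggtggggga
Eif3f: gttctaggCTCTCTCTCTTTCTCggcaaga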

How the data were processed

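PolyA-selected RNA of 1 biosample of mouse regulatory T cells was sequenced as 2 libraries. The deposited M21 tables give estimated counts, TPM, FPKM and posterior values (posterior SD, used as a score, by the authors' model) per gene, and the percent of a gene's TPM per transcript, per the file headers. The deposited file lists name GENCODE M21 on mm10 and transcriptome alignments as their base. Other deposited tables hold whole-number counts on GENCODE M4 from genome alignments, per the file lists. The aligner, the counting tool and strand were not given in the sources used here. Rows that name no annotated gene (0.197% and 0.212% of estimated counts) were left out.

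Estimated counts were rounded and scaled by TMM (edgeR 4.0.16). Genes whose counts summed to 10 or more entered an exact two-sided binomial test (scipy 1.17.1) with Benjamini-Hochberg adjustment, checked on simulated counts. Ratios used a prior count of 0.5. With 1 library per side no residual degrees of freedom remain for edgeR's quasi-likelihood fit, so its exact test and DESeq2 1.42.0 size factors were alternatives. The common dispersion of that exact test was estimated from the same 2 libraries taken as 1 group. Ratios were also centred on the running median of the 250 protein-coding genes of nearest length on either side. Names, coordinates and transcript sequences came from GENCODE M21 (GRCm38), promoters from RefSeq. Binomial p-values cover counting error only and do not measure the spread between libraries, and PCR copies are not independent molecules. One marker list is not reported here. The members and lists were chosen with earlier results of these data known. Values in full went to the 10 most abundant factors, those under 1 TPM, subunits of the named complexes, pairs, the 5 largest ratios each way with at least 100 counts, and factors led by a transcript that is not protein-coding.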

Additional observations from a re-analysis of the deposited data

Results flagged for a closer look

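Pseudogenes named after the factors carry "-ps" in their symbols and were left out of the 60. Of the 10 such entries, 7 had more than 3 estimated counts in both libraries, which is what marked them for a closer look, and 3 did not. Over both libraries Eif4a-ps4 was given 4716 counts, Eif1-ps1 32.3, Eif5al3-ps 25.3, Eif3s6-ps2 19.9, Eif1-ps2 17.0, Eif3s6-ps3 16.0 and Eif3s6-ps1 11.3 counts. Eif4a-ps4 stood apart from the rest, at 87.2 and 107 TPM. It shares 64.9% of the windows of the leading Eif4a1 transcript. The counts of these entries are estimates made where reads fit several genes, and whether the pseudogenes are transcribed was not tested.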

How the results depend on the processing

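No paired analysis was possible because there is 1 group. The count of 57 detected factors was the same under the 6 alternatives run (minimum of 0.5 or 5 TPM, FPKM, posterior mean TPM, either library alone). In FPKM, a smaller unit, the group medians were 159.7 for eEF1, 354 for eEF2 and eIF5A, 27.6 for eIF2, 37.9 for eIF2B, 101 for eIF3, 64.0 for eIF4, 18.2 for modifiers and 32.1 for start codon factors. By posterior mean TPM they were 239, 528, 41.4, 56.65, 153, 99.7, 27.4 and 48.1. Either library alone gave 163 to 165 for eIF3.

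Divided by M21 effective length, whole-number M4 counts turned the ratio around for Eif4a1 to Eif4a2 (0.281), Eif1ax to Eif1a (1.69), Eif4e to Eif4e2 (0.452), Eif3j1 to Eif3j2 (8.19) and Eif4a1 to Eif4a3 (0.195). They moved Eif5a to Eif5a2 to 53.5, Eif1 to Eif1b to 1.64, Eif4e to Eif4e3 to 3.97, Eif4g1 to Eif4g2 to 0.684 and Eif2s3x to Eif2s3y to 0.00443. In library 2 they moved Eef1a1 to Eef1a2 to 465. By posterior mean TPM Eif4g1 to Eif4g2 was 0.153. The cause was not tested.

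With M4 counts the binomial test called 5 factors higher in library 2 and 1 higher in library 1 (55 tested), where 561 and 1186 of 12147 genes were called. With edgeR's exact test, whose dispersion came from these same libraries, these were 0 and 0. The log2 ratio of 15 of the 55 factors changed sign with M4 counts, 9 of them not called on estimated counts and 0 called on M4 counts. The 6 that had been called were Eif5a (0.0508), Eif4g2 (0.0679), Eif5 (0.0208), Eif3b (0.0222), Eif6 (0.00458) and Eif2s3x (−0.0911). As a ratio of TPM with a pseudocount of 1 the factors' median was −0.0276, beside −0.05 for all genes tested, so the factors lay above all genes on both scales. By estimated counts 1 factor, not 6, was led by a transcript that is not protein-coding, and the median protein-coding share was 97.2%.

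With 2 libraries of 1 biosample no value here can be carried to other mice. Depth did not limit the detected factors, all of which had at least 386.6 counts in each library.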

Other observations

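When eIF2 is phosphorylated, general initiation falls while translation of Atf4, a transcription factor of the stress response, rises, and its target genes follow. A list of 7 genes of that response held 1 symbol, Ddit3, that matched more than 1 gene and was given no value. Of the other 6, 5 were detected. Atf4 itself stood at 81.4 and 83.6 TPM and Ddit4, an inhibitor of mTOR signalling, at 58.7 and 47.9 TPM. Sesn2, another inhibitor on that path, stood at 6.90 and 4.98 TPM, and Trib3, a pseudokinase, at 3.85 and 2.49 TPM. Asns, the asparagine synthetase gene, stood at 1.77 and 2.26 TPM, and Chac1, which degrades glutathione, at 0.03 and 0 TPM. Of the 5 tested, Ddit4, Sesn2 and Trib3 were called higher in library 1 and Atf4 higher in library 2, beside 19.2% and 17.2% of all genes tested. Ppp1r15a, whose product restores eIF2, was also higher in library 1 (83.0 and 58.9 TPM, log2 ratio −0.50, binomial adjusted p = 8.28e-41). edgeR's exact test, whose dispersion came from these same libraries, called none of these 5.

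Small RNA genes lie within the spans of some factors, and whether they lie in introns was not checked. On the same strand, 8 of the 60 factors contain 17 annotated snoRNA genes. Eif4a1 holds Gm25835 among others, which was given 17 and 37 estimated counts, and Eef1b2 holds Snora41, with 18 and 10. PolyA selection is not made for such RNAs, so these counts say little of their levels.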
